A study of Oreochromis niloticus with 12 samples.

Results

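Genes of the early transcriptional and stress response, 4 in number, were followed through Nile tilapia gonads: fosab, jun, ddit4 and dusp2. They were taken by gene name from the deposited table, which held 1 gene of each name, so 4 of its 22283 genes are described. The 12 libraries were of testis labelled as suppressed for SF1, control testis, ovary labelled as suppressed for SF1 and control ovary, with 3 libraries in each. The labels say that RNA fragments antisense to SF1, the nuclear receptor gene nr5a1, had been carried into eggs before fertilisation, and gonads were taken at sexual maturity after a culture of 150 days, the first 30 of them in a small circulating system, with feeding stopped shortly before sampling. Control eggs had received the transfection reagent with ultrapure water or with a blank plasmid, and which of these, or which of the antisense constructs, each library came from is not given in the sources used here. The labels name no strain and no promoter for the constructs, and they do not say whether a library was 1 fish or a pool. The p-values therefore measure only the spread between these libraries, which may be technical.

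Immediate early genes are switched on by signals within minutes, without new protein synthesis, and usually fall back quickly. The proteins of fosab and jun are subunits of AP-1, a dimeric transcription factor whose activity follows MAP kinase signalling. In mammals DUSP2 is a nuclear phosphatase that removes the activating phosphates from MAP kinases, and DDIT4, also called REDD1, is induced by hypoxia, glucocorticoids, energy shortage and DNA damage and restrains the growth kinase complex mTORC1.

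All 4 genes lay on scaffolds of the authors' build, on the minus strand, with 1 transcript each and 0 overlapping genes. The table gave fosab (ENSONIG00000015264) at GL831316.1 from 29831 to 33994 and jun (ENSONIG00000021256) at GL831264.1 from 833503 to 834474. It gave ddit4 (ENSONIG00000018504) at GL831242.1 from 1656365 to 1657488 and dusp2 (ENSONIG00000014447) at GL831230.1 from 1646957 to 1650593. Library totals lay between 36.8 and 60.5 M counts, and the lowest count of any of the 4 genes in any library was 15, for ddit4 in a control ovary.

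The targeted gene was not lower under the label. nr5a1 had 23.7, 24.3 and 6.34 FPKM in the testes labelled suppressed, against 9.26, 11.8 and 17.9 FPKM in control testes, a log2 change of 0.58 (SE 0.44, adjusted p = 0.415). It had 1.35, 2.95 and 1.73 FPKM in the ovaries labelled suppressed, against 1.37, 1.95 and 2.80 FPKM in control ovaries, a log2 change of 0.04 (adjusted p = 0.935). The groups overlapped in both gonads, and strand is not given, so antisense and sense reads could not be told apart. Every direction below is therefore that of the libraries labelled suppressed. Testis marker genes summed to 816 to 1768 FPKM in testes labelled suppressed and 891 to 942 FPKM in control testes, against 47.1 to 53.3 FPKM in ovaries. The largest part of the testis sum was gsdf, at means of 951 FPKM in testes labelled suppressed and 446 FPKM in control testes. The marker amh had a lower mean there, at 113 and 187 FPKM. cyp11c1 did not separate the control gonads, with 15.1 FPKM in testes and 14.8 FPKM in ovaries. Oocyte markers summed to 1726 to 1733 FPKM in ovaries labelled suppressed and 1329 to 1478 FPKM in control ovaries, against 47.1 to 61.5 FPKM in testes. Most of the ovary sum was zar1, at means of 1250 FPKM in ovaries labelled suppressed and 955 FPKM in control ovaries. The oocyte marker figla went the other way and made up most of the testis sum. It averaged 44.8 FPKM in testes labelled suppressed and 41.3 FPKM in control testes, against 24.8 and 21.1 FPKM in the ovaries. Replicate 3 of the testes labelled suppressed stood apart from its group, with correlations of log2 expression of 0.968 and 0.976 with the remaining libraries, which correlated at 0.991 with each other.

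In the testis, both AP-1 genes were lower in libraries labelled suppressed. fosab had 1.27, 0.862 and 0.617 FPKM in testes labelled suppressed, against 3.10, 3.44 and 3.81 FPKM in control testes. The highest labelled library was below the lowest control, and the means were 0.915 ± 0.328 and 3.45 ± 0.355 FPKM (SD, n = 3 each). fosab fell by 1.80 on the log2 scale (SE 0.27, edgeR adjusted p = 0.00678), which ranked it 136th by size among the 816 genes that fell. jun had 14.9, 14.8 and 9.19 FPKM in testes labelled suppressed, against 36.9, 37.9 and 39.0 FPKM in control testes. The control values lay close together, well above all labelled libraries, and replicate 3 of the labelled testes was again the lowest. jun fell by 1.44 on the log2 scale (SE 0.17, adjusted p = 0.00276). Of 14368 genes tested in the testis, 5.68% fell and 5.25% rose, and the ranges of the groups did not overlap for 39.0%, so non-overlap alone is common here. Both calls held in each fit that left out 1 library, with the adjusted p reaching at most 0.0415 for fosab and 0.0214 for jun. In whole gonads, fewer cells of a type and less RNA per cell cannot be told apart.

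The other two genes did not separate the testis groups. ddit4, the mTORC1 inhibitor gene, had 4.25, 5.32 and 2.58 FPKM in testes labelled suppressed, against 3.84, 3.43 and 2.50 FPKM in control testes. The groups overlapped, with a log2 change of 0.40 (SE 0.34, adjusted p = 0.460) that was 0.20 without labelled replicate 2, 0.23 without control replicate 3 and 0.61 without labelled replicate 3. dusp2, the phosphatase gene, had 0.519, 0.948 and 0.183 FPKM in testes labelled suppressed, against 1.60, 0.754 and 0.804 FPKM in control testes. With only 1 library at 1 FPKM or more it was under the filter, which asked for 1 FPKM in at least 3 libraries. The means were 0.550 ± 0.384 and 1.05 ± 0.475 FPKM (SD, n = 3 each), with an exact two-sided permutation p of 0.3, where the smallest p for 3 against 3 is 0.1. A fit with no filter gave a log2 change of -0.84 (SE 0.55, adjusted p = 0.375), which was -1.43 without labelled replicate 2, -0.46 without labelled replicate 3 and -0.39 without control replicate 1.

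**Figure D1:**
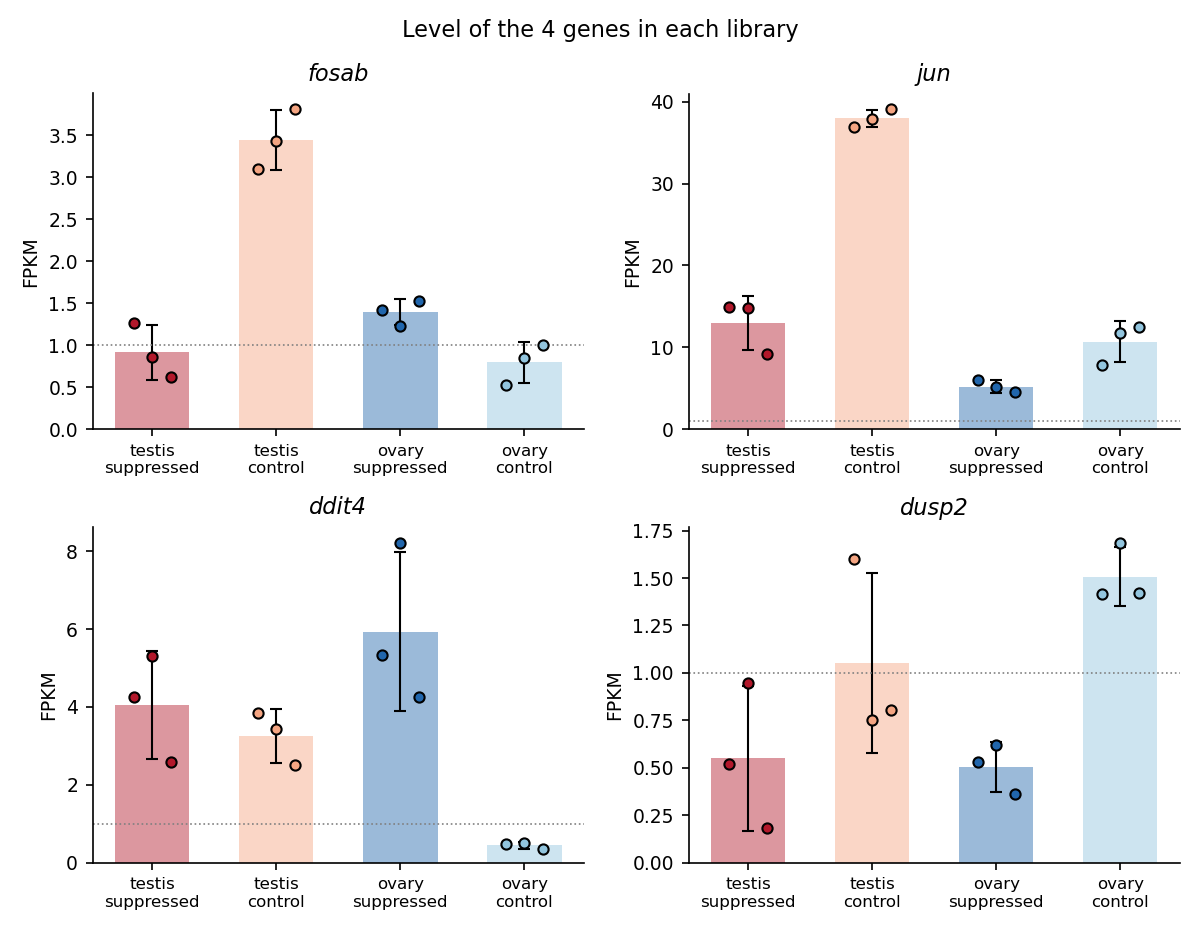
FPKM of fosab, jun, ddit4 and dusp2 in each of the 12 libraries (points, replicates 1 to 3 from left to right), with group means (bars) and SD (error bars), n = 3 per group; the dotted line is at 1 FPKM. fosab and jun stand highest in control testes at means of 3.45 and 38.0 FPKM, and ddit4 is lowest in control ovaries at 0.451 FPKM.

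In the ovary, ddit4 was far higher in libraries labelled suppressed, fosab was higher, and jun and dusp2 were lower. fosab had 1.42, 1.23 and 1.53 FPKM in ovaries labelled suppressed, against 0.532, 0.851 and 1.01 FPKM in control ovaries. The groups did not overlap, but the lowest labelled and highest control library were 1.23 and 1.01 FPKM. fosab rose by a log2 change of 0.87 (SE 0.26, adjusted p = 0.0246), and the call was lost without replicate 1 (adjusted p = 0.0735) or replicate 3 (adjusted p = 0.0843) of the labelled ovaries. jun had 6.00, 5.11 and 4.50 FPKM in ovaries labelled suppressed, against 7.83, 11.7 and 12.5 FPKM in control ovaries. Control replicate 1 was the nearest to the labelled libraries, and the groups did not overlap. jun fell by 0.97 on the log2 scale (SE 0.21, adjusted p = 0.00536).

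The largest difference of the 4 genes was that of ddit4 in the ovary. It had 5.34, 8.21 and 4.24 FPKM in ovaries labelled suppressed (201, 343 and 182 counts), against 0.483, 0.518 and 0.353 FPKM in control ovaries (17, 19 and 15 counts). Every labelled library was several times above every control, and the ratio of the means was 13.1. ddit4 rose by a log2 change of 3.76 (SE 0.35, adjusted p = 2.87e-05), the 69th largest among 2268 genes that rose. dusp2 had 0.530, 0.619 and 0.360 FPKM in ovaries labelled suppressed, against 1.42, 1.68 and 1.42 FPKM in control ovaries. All controls lay above 1 FPKM and all labelled libraries below it, with no overlap. dusp2 fell by 1.50 on the log2 scale (SE 0.27, adjusted p = 0.00172). ddit4 passed the filter only through the labelled libraries and dusp2 only through the controls, so a gene that entered in this way had to differ. fosab was at 1 FPKM or more in 3 labelled ovaries and 1 control ovary, so it too reached the filter through its higher group. The same held for fosab in testis, with 3 control libraries and 1 labelled library at 1 FPKM or more. Of 12557 genes tested in the ovary, 18.1% rose and 17.9% fell, and the ranges did not overlap for 50.0%, against which non-overlap of all 4 genes is to be read.

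**Figure D2:**
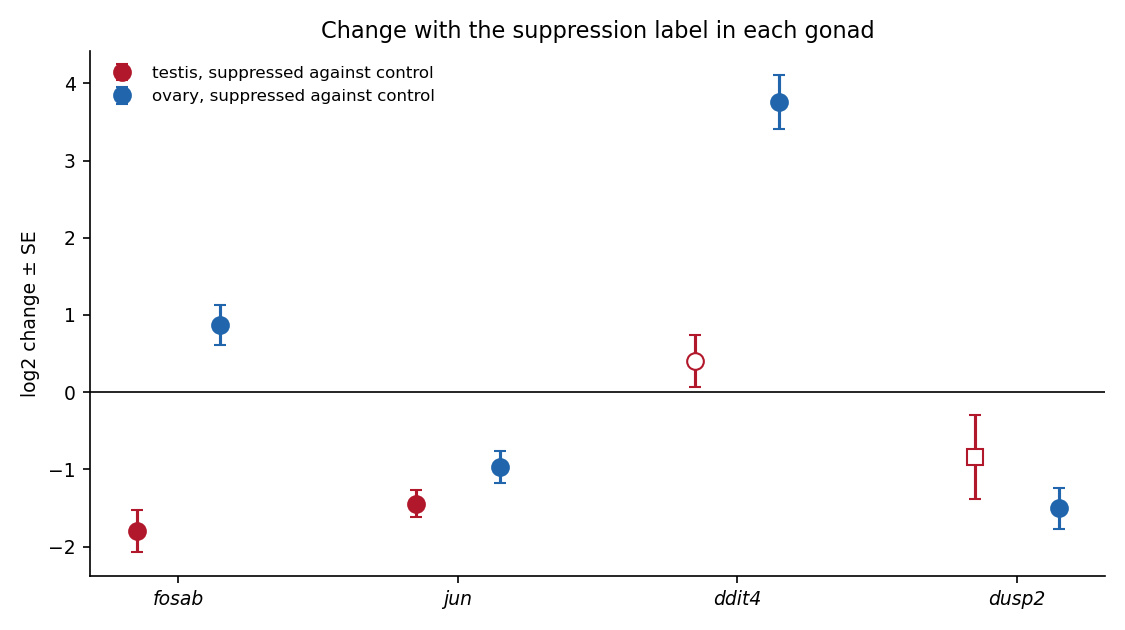
Log2 change ± SE of each gene in libraries labelled suppressed against control, in testis (red) and ovary (blue), from edgeR; filled symbols have an adjusted p under 0.05, and the square (dusp2 in testis) is from the fit with no filter. fosab lies at -1.80 in testis and 0.87 in ovary, and ddit4 at 0.40 and 3.76.

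The change differed between the gonads for fosab and ddit4. The testis change minus the ovary change, tested as an interaction over all 12 libraries, was a log2 of -2.71 for fosab (SE 0.41, adjusted p = 0.000866) and -3.39 for ddit4 (SE 0.53, adjusted p = 0.00109). Of 15382 genes tested for it, 15.5% passed. For jun it was -0.51 (SE 0.29, adjusted p = 0.255), and for dusp2 0.62 (SE 0.69, adjusted p = 0.600), so no difference between the gonads was shown for these, which does not show that they changed alike. Without 1 testis library the dusp2 value lay between 0.08 (labelled replicate 2 left out) and 1.12 (control replicate 1 left out). The jun value was -0.32 without labelled testis replicate 3 and -0.33 without control ovary replicate 1, and none of these fits passed the test.

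Among the control libraries the AP-1 genes and ddit4 were higher in testis. The 4 genes were compared between control testes and control ovaries with log2 differences of 1.92 for fosab (SE 0.26, adjusted p = 7.29e-05), 1.65 for jun (SE 0.17, adjusted p = 1.3e-05) and 2.66 for ddit4 (SE 0.39, adjusted p = 0.000144). Here ddit4 passed the filter only through the control testes, since the control ovaries had 0.353 to 0.518 FPKM, so it had to differ. fosab was at 1 FPKM or more in 3 control testes and 1 control ovary. dusp2 gave -0.69 (SE 0.35, adjusted p = 0.0930), and without control testis replicate 1, its highest testis library, -1.13 (adjusted p = 0.00839). Of 14719 genes tested, 44.1% were higher and 42.3% lower in testis, so most genes differed. Between the libraries labelled suppressed, testis exceeded ovary only for jun among the 4 genes, at a log2 of 1.18 (SE 0.24, adjusted p = 0.00242), where 41.3% of 14189 genes were higher and 39.9% lower. fosab gave -0.73 (SE 0.31, adjusted p = 0.0595) and ddit4 -0.68 (SE 0.37, adjusted p = 0.122), or -0.39 without labelled ovary replicate 2, and the fosab value passed the test at -1.00 (adjusted p = 0.0185) without replicate 1 of the labelled testes. dusp2 averaged 0.550 FPKM in testes and 0.503 FPKM in ovaries labelled suppressed and was under the filter.

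Ordered by mean FPKM, fosab was highest in control testis, which did not overlap the group below it. The ovary labelled suppressed, the testis labelled suppressed and the control ovary followed, each of these overlapping the next. jun ran from control testis down to labelled testis and control ovary, which overlapped, and then labelled ovary, which did not overlap control ovary. For ddit4 the labelled ovary, labelled testis and control testis overlapped in turn, and control ovary stood below all. For dusp2 every neighbouring pair overlapped, from control ovary and control testis to the labelled testis and labelled ovary.

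The ratio of jun to fosab FPKM, taken from the levels above, describes these genes alone and not the whole Fos and Jun families. It averaged 14.6 ± 2.69 in testes labelled suppressed and 11.1 ± 0.835 in control testes, against 3.77 ± 0.717 in ovaries labelled suppressed and 13.6 ± 1.15 in control ovaries (SD, n = 3 each). The labelled ovaries, at 2.94 to 4.22, lay below all other libraries.

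Genes of the same families did not all follow the 4 genes. The table held 5 Fos family genes, and fosab made up 6.04% ± 1.55 of their summed FPKM in testes labelled suppressed and 13.4% ± 0.704 in control testes (SD, n = 3 each). It made up 7.93% ± 0.786 in ovaries labelled suppressed and 3.15% ± 0.654 in control ovaries. fosl2, a Fos family subunit without the transactivation domain of Fos in mammals, was the most abundant of the 5, at 6.25 ± 1.54 FPKM in testes labelled suppressed and 13.5 ± 2.20 FPKM in control testes. It fell by 1.01 on the log2 scale in testis (SE 0.22, adjusted p = 0.0285) and by 0.62 in ovary (SE 0.14, adjusted p = 0.00595). The testis call was lost without labelled replicate 2 or any 1 control library (adjusted p up to 0.136). fosaa, the duplicate of fosab, had log2 changes of 0.20 in testis (adjusted p = 0.639) and -0.38 in ovary (adjusted p = 0.0846), opposite in sign to fosab in both, though neither passed the test. fosb and fosl1a gave 0.22 (adjusted p = 0.596) and -0.45 (adjusted p = 0.259) in testis and were under the filter in ovary.

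Of the 6 Jun family genes, jun itself made up 21.9% ± 0.874 of the summed FPKM in testes labelled suppressed and 32.8% ± 1.47 in control testes (SD, n = 3 each). In ovaries it made up 7.43% ± 0.695 in those labelled suppressed and 16.9% ± 0.786 in controls. A copy of jund (ENSONIG00000021437) had 22.6, 23.3 and 17.1 FPKM in testes labelled suppressed, against 39.0, 40.4 and 44.7 FPKM in control testes, without overlap. It fell by 0.87 on the log2 scale (SE 0.13, adjusted p = 0.00628), a call that held in each fit without 1 library, and gave -0.49 in ovary (adjusted p = 0.0863). A copy of JUN fell by 0.71 in testis (SE 0.16, adjusted p = 0.0322), lost without labelled replicate 2 or any 1 control library (adjusted p up to 0.139), and gave 0.08 in ovary (adjusted p = 0.703). junbb, which encodes a JunB, had 43.1, 42.4 and 42.6 FPKM in ovaries labelled suppressed, against 20.4, 29.5 and 31.2 FPKM in control ovaries. There it rose by a log2 change of 0.73 (SE 0.14, adjusted p = 0.00266), and in testis it gave 0.15 (adjusted p = 0.734). junbb was the most abundant Jun gene of the ovary, and the family sum was 69.8 ± 3.70 FPKM in ovaries labelled suppressed and 62.9 ± 12.4 FPKM in control ovaries. For testis the family sum was 59.1 ± 14.0 FPKM in libraries labelled suppressed and 116 ± 8.49 FPKM in controls. The other copy of jund passed neither test, and junba was under the filter in testis and gave 0.04 in ovary (adjusted p = 0.944). How the counting treated reads shared by such copies is not given in the sources used here, and its part in their values was not tested.

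The DDIT4 family had 3 genes, and the most abundant was a copy named DDIT4 (ENSONIG00000016087), not ddit4. The copy had 57.1, 56.0 and 24.6 FPKM in testes labelled suppressed, against 116, 136 and 132 FPKM in control testes. Every labelled library was below every control, and it fell by 1.38 on the log2 scale (SE 0.26, adjusted p = 0.0169), a call lost without any 1 control library (adjusted p up to 0.0798). In ovary the copy had 20.7, 23.4 and 19.3 FPKM in libraries labelled suppressed, against 16.9, 20.5 and 15.3 FPKM in controls, a log2 change of 0.34 (SE 0.12, adjusted p = 0.0507) with overlap. ddit4 made up 18% ± 4.03 of the family's FPKM in ovaries labelled suppressed and 1.85% ± 0.184 in control ovaries (SD, n = 3 each). In testes it made up 6.18% ± 0.769 in those labelled suppressed and 2.21% ± 0.557 in controls. DDIT4L, a related gene, gave -0.04 in testis (adjusted p = 0.881) and -0.19 in ovary (adjusted p = 0.433).

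**Figure D3:**
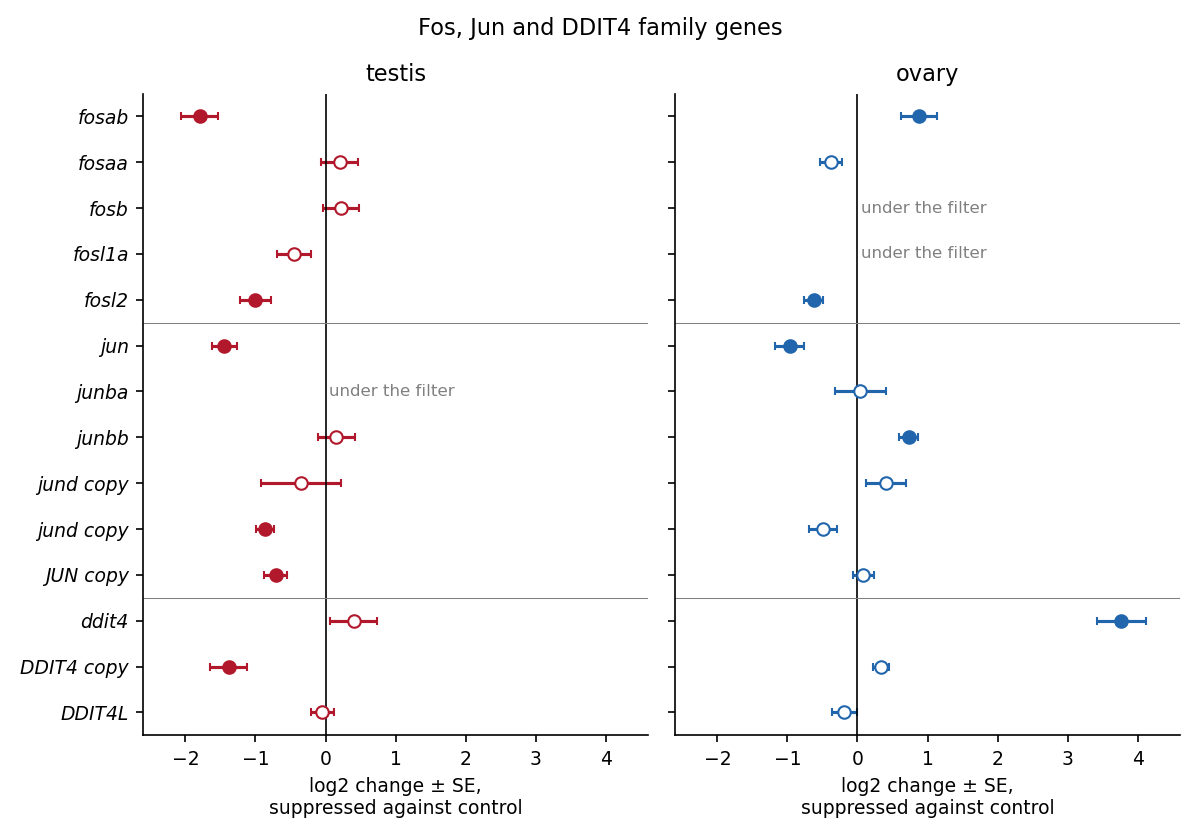
Log2 change ± SE, labelled suppressed against control, of the Fos, Jun and DDIT4 family genes in testis (left) and ovary (right), from edgeR; filled points have an adjusted p under 0.05, and genes under the filter are marked. ddit4 at 3.76 in ovary stands far from its DDIT4 copy at 0.34, and the copy is at -1.38 in testis where ddit4 is at 0.40.

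The genes on either side of each of the 4 on their scaffolds were also looked up. Of these 8, not all of them tested, 0 passed the test in testis, and spock2 and tmed10 passed it in ovary. Over all tested genes 10.9% passed in testis and 35.9% in ovary, so these few calls are not unusual. The nearest to the threshold in testis was si:ch211-117c19.1 beside dusp2 (edgeR adjusted p = 0.0504). spock2, next to ddit4, fell by 0.75 on the log2 scale in ovary (SE 0.16, adjusted p = 0.00533) where ddit4 rose, and tmed10, next to fosab, fell by 0.23 (SE 0.06, adjusted p = 0.0139) where fosab rose. adra2b was under the filter in both gonads and si:ch211-153j24.3 in ovary.

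Lists of genes around the 4 genes were counted in each gonad, beside a median log2 change over all tested genes of 0.00056 in testis and -0.0049 in ovary. Over all tested genes 10.9% passed the test in testis (5.25% rose and 5.68% fell) and 35.9% in ovary (18.1% rose and 17.9% fell), and the share of each list that passed is to be read against these. In the list of AP-1 and related bZIP factors, which holds fosab and jun, 5 of 24 tested genes fell and 0 rose in testis (20.8%), with a median of -0.43. The 5 were fosab, jun, fosl2 and the copies of jund and JUN already given. As fosab and jun were chosen with earlier results of these data known, the share of 20.8% is not free of that choice. Its distance from 10.9% cannot be read as a result of the list apart from fosab and jun. dusp2 and ddit4 likewise count in their own lists below. Without the outlying labelled replicate 3, there were 8 lower and 0 higher genes, and leaving out any 1 of the controls left 3 lower. In ovary 2 of 22 rose, fosab and junbb, and 5 fell (31.8% in all), with a median of -0.18. mafbb fell by 1.82 on the log2 scale, to 7.52 ± 2.35 FPKM in ovaries labelled suppressed, against 27.9 ± 12.1 FPKM in control ovaries (SD, n = 3 each). mafba, its duplicate, fell by 1.32 (lost without labelled replicate 1, labelled replicate 3 or control replicate 3, adjusted p up to 0.0758). atf3, a stress-induced repressor, fell by 0.97 (lost without control replicates 2 or 3 or without labelled replicate 1, where the adjusted p reached up to 0.0762).

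Of the other immediate early genes, 1 of 37 rose and 4 fell in testis (13.5% in all), with a median of -0.38. socs3a, a suppressor of cytokine signalling, had 23.3 ± 11.4 FPKM in testes labelled suppressed and 122 ± 21.4 FPKM in control testes (SD, n = 3 each), and fell by 2.29 on the log2 scale (adjusted p = 0.00496). Its duplicate socs3b fell by 1.62 and cebpb, a bZIP factor, by 1.12. klf9, a glucocorticoid-responsive transcription factor gene, fell by 2.48, to 3.65 ± 1.48 FPKM in testes labelled suppressed, against 22.1 ± 6.61 FPKM in control testes. These 4 kept their calls in each fit without 1 library. A copy of NR4A1, an orphan nuclear receptor, rose by a log2 change of 0.81 (not past the test once control replicate 1 or 3 was left out, at most at adjusted p = 0.0549). Without labelled replicate 3, 4 rose and 5 fell.

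In ovary 11 of 33 other immediate early genes rose and 9 fell (60.6% in all), with a median of 0.14. ptgs2b, a prostaglandin synthase, rose by a log2 change of 3.00 (adjusted p = 0.000121), with 2.46 ± 0.404 FPKM in ovaries labelled suppressed and 0.317 ± 0.174 FPKM in control ovaries (SD, n = 3 each), and like ddit4 it passed the filter only through the labelled libraries. nfil3-5, a bZIP repressor, fell by 1.27 on the log2 scale (adjusted p = 0.000468). mycn fell by 1.18, and cyr61 (1.12), nr4a3 (1.03) and ier2 (0.96) rose. The calls of these 4 were lost without labelled replicate 1 and, for all but cyr61, without other libraries too, with adjusted p up to 0.0653, 0.0528, 0.0837 and 0.152 in that order. Leaving out labelled replicate 1 left 7 higher and 6 lower in this list.

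In the list of dual specificity phosphatases and ERK feedback genes, to which dusp2 belongs, 3 of 25 fell and 0 rose in testis (12%, near the share over all genes), with a median of -0.39. dusp5, a phosphatase of the MAP kinase ERK, fell by 1.78 on the log2 scale (adjusted p = 0.00286), with 8.21 ± 2.69 FPKM in testes labelled suppressed and 30.3 ± 2.26 FPKM in control testes (SD, n = 3 each). errfi1, an inhibitor of epidermal growth factor receptors, fell by 1.84 and DUSP8 by 0.74. Both were lost without any 1 control library, errfi1 also without labelled replicate 1 and DUSP8 without labelled replicate 2 (adjusted p up to 0.106 and 0.171). Without labelled replicate 3, 1 rose and 5 fell. In ovary 2 of 20 rose and 6 fell (40.0% in all), with a median of -0.14. dusp2 had the largest change of the list there, and dusp19b rose by a log2 change of 0.77. etv5a, an ETS factor, fell by 0.59, il17rd, a receptor that dampens growth factor signalling, by 0.46 and dusp22a by 0.38. errfi1 fell by 0.73 in ovary, a call lost without any 1 library but control replicate 1 (adjusted p up to 0.169).

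Of the MAP kinase genes upstream of fos and jun, 1 of 45 rose and 2 fell in testis (6.67% in all), with a median of -0.16. map3k8, a kinase upstream of ERK, fell by 1.50 on the log2 scale (adjusted p = 0.00111), with 4.18 ± 0.746 FPKM in testes labelled suppressed and 12.7 ± 1.23 FPKM in control testes (SD, n = 3 each). elk1, an ETS factor that acts at serum response elements of fos genes, fell by 0.85 in testis (lost without control replicate 1, control replicate 2 or labelled replicate 2, where it was at most at adjusted p = 0.0693). In ovary it fell by 0.86, and there the call held in each fit without 1 library. mapk6 rose by 0.40 in testis, lost without any 1 library but labelled replicate 3 (adjusted p up to 0.162). Without labelled replicate 3, 1 rose and 6 fell. In ovary 5 of 37 rose and 9 fell (37.8% in all, near the share over all genes), with a median of -0.06. mapk12b, a p38 kinase, fell by 1.05 (adjusted p = 3.32e-05), map3k3 by 0.84, rps6ka5 by 0.57 and map3k5 by 0.53, the last of these lost without control replicate 2 (adjusted p = 0.0543). map2k2b, an ERK kinase, rose by a log2 change of 0.59.

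In the list of DDIT4 and the mTORC1 pathway, 4 of 44 fell and 0 rose in testis (9.09%), with a median of -0.14. txnipa, a thioredoxin-interacting protein gene, fell by 1.51 on the log2 scale (adjusted p = 0.000936), with 83.5 ± 17.0 FPKM in testes labelled suppressed and 256 ± 12.7 FPKM in control testes (SD, n = 3 each). Beside the DDIT4 copy, sesn1, a stress-induced inhibitor of mTORC1, fell by 1.26 and rictora, a subunit of mTORC2, by 0.47. Both were lost without labelled replicate 2 or any 1 control library (adjusted p up to 0.122 and 0.175). Without labelled replicate 3, 1 rose and 5 fell, and each fit without a control library left 1 lower gene. In ovary 4 of 43 rose and 10 fell (32.6% in all), with a median of -0.10. Both shares were near those over all genes. In ovary, ddit4 had the largest change of the list. ptena, the phosphatase that opposes the kinase AKT, fell by 1.54 (adjusted p = 0.000473), with 1.05 ± 0.342 FPKM in ovaries labelled suppressed and 3.20 ± 0.144 FPKM in control ovaries. akt2, which like dusp2 passed the filter only through the control libraries, fell by 1.55, while a copy of AKT2 rose by 0.72 and txnipb by 0.67. flcn, a regulator of mTORC1 at lysosomes, fell by 0.77 (lost without labelled replicates 2 or 3 or control replicates 2 or 3, adjusted p up to 0.0845).

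In the list of DNA damage and integrated stress response genes, 2 of 41 rose and 3 fell in testis (12.2% in all, near the share over all genes), with a median of -0.10. trib3, a pseudokinase gene induced by stress, fell by 1.23 on the log2 scale, with 2.76 ± 0.547 FPKM in testes labelled suppressed and 7.0 ± 0.695 FPKM in control testes (SD, n = 3 each). trib2 fell by 1.05 and cdkn1a, the cell cycle inhibitor p21, by 0.58, while nupr1 rose by 0.52 and a copy of HSPA5, the chaperone of the endoplasmic reticulum, by 0.49. All 5 were lost without control replicate 1 or 2, and all but trib3 also without control replicate 3 and labelled replicate 1 (adjusted p up to 0.172). trib2 and cdkn1a were lost without labelled replicate 2 as well. Without labelled replicate 3, 3 rose and 8 fell. In ovary 8 of 37 rose and 3 fell (29.7% in all), with a median of 0.06. nupr1 rose by 1.03, chac1, which degrades glutathione, by 0.67 (adjusted p = 3.63e-05), with 505 ± 38.5 FPKM in ovaries labelled suppressed and 333 ± 7.08 FPKM in control ovaries (SD, n = 3 each). cdkn1bb fell by 0.92, and phlda3 and cdkn1a rose by 0.99 and 0.63. The calls of phlda3 (any labelled replicate or control replicate 1) and cdkn1a (labelled replicates 2 or 3, control replicates 1 or 2) were lost without 1 library, with adjusted p up to 0.0670 and 0.155.

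Of the glucocorticoid and hypoxia responsive genes, 1 of 34 rose and 5 fell in testis (17.6% in all), with a median of -0.33. Beside klf9, the clock genes per2 and per1b fell by 1.29 and 0.68 on the log2 scale, egln2, an oxygen sensor, by 1.06 and bnip3, a mitophagy gene, by 0.80. star, the cholesterol carrier of steroid synthesis, rose by 1.55, with 698 ± 314 FPKM in testes labelled suppressed and 255 ± 53.0 FPKM in control testes (SD, n = 3 each). per2, egln2 and klf9 kept their calls in each fit without 1 library, while bnip3, per1b and star lost theirs without any 1 control library, per1b also without labelled replicate 2 and star without labelled replicate 1 or 2 (adjusted p up to 0.0826, 0.158 and 0.118). Without labelled replicate 3, 2 rose and 9 fell. In ovary 4 of 34 rose and 10 fell (41.2% in all), with a median of -0.17. foxo3a fell by 1.22, per1b by 1.21 (adjusted p = 3.23e-06) and fkbp5, a target of the glucocorticoid receptor, by 1.07, with 22.3 ± 3.18 FPKM in ovaries labelled suppressed and 49.0 ± 8.38 FPKM in control ovaries. sgk1 fell by 0.91, klf9 by 0.88 and egln1a by 0.71. The call of klf9 was lost without control replicate 2 (adjusted p = 0.0542), and that of sgk1 without any 1 library but control replicate 1 (adjusted p up to 0.160).

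Of the heat shock inducible genes, 1 of 21 rose and 0 fell in testis (4.76%), with a median of 0.15. It was serpinh1a, a collagen chaperone, at a log2 change of 1.23 (adjusted p = 0.0336), lost without any 1 library but labelled replicate 3 (adjusted p up to 0.134). Without that replicate, 6 rose and 1 fell. In ovary 6 of 19 rose and 3 fell (47.4% in all), with a median of -0.0011. serpinh1a rose by 0.96 and serpinh1b by 0.80, hspb1, a small heat shock protein, by 0.71 and hspd1 by 0.29, while hspa4a fell by 0.75 and dnajb5 by 0.32.

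Leaving out 1 library moved these counts by over 1.5 times in further fits. In testis, leaving out labelled replicate 2 left 3 lower AP-1 genes, 1 lower and 0 higher MAP kinase genes, 2 lower mTORC1 genes, 1 lower stress response gene, 0 higher glucocorticoid or hypoxia genes and 0 heat shock genes. Leaving out labelled replicate 1 left 0 higher genes in the MAP kinase, stress response, glucocorticoid and hypoxia, and heat shock lists. Each fit without 1 of the control testes also left 0 higher genes in those 4 lists, with 1 lower phosphatase or feedback gene, 3 lower glucocorticoid or hypoxia genes, between 0 and 1 lower stress response genes and between 1 and 2 lower MAP kinase genes. The other immediate early genes had 0 higher without control replicate 1 or 3. In ovary, leaving out labelled replicate 1 left 1 higher and 3 lower AP-1 genes, 1 higher phosphatase or feedback gene, 3 higher MAP kinase genes and 6 lower mTORC1 genes. Leaving out labelled replicate 3 left 1 higher AP-1 gene, 1 higher phosphatase or feedback gene, 3 higher MAP kinase genes, 6 lower mTORC1 genes and 5 higher stress response genes. Control replicate 1 left 1 higher phosphatase or feedback gene and 3 higher MAP kinase genes, control replicate 2 left 6 lower glucocorticoid or hypoxia genes, and control replicate 3 left 3 lower AP-1 genes and 2 higher MAP kinase genes.

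**Figure D4:**
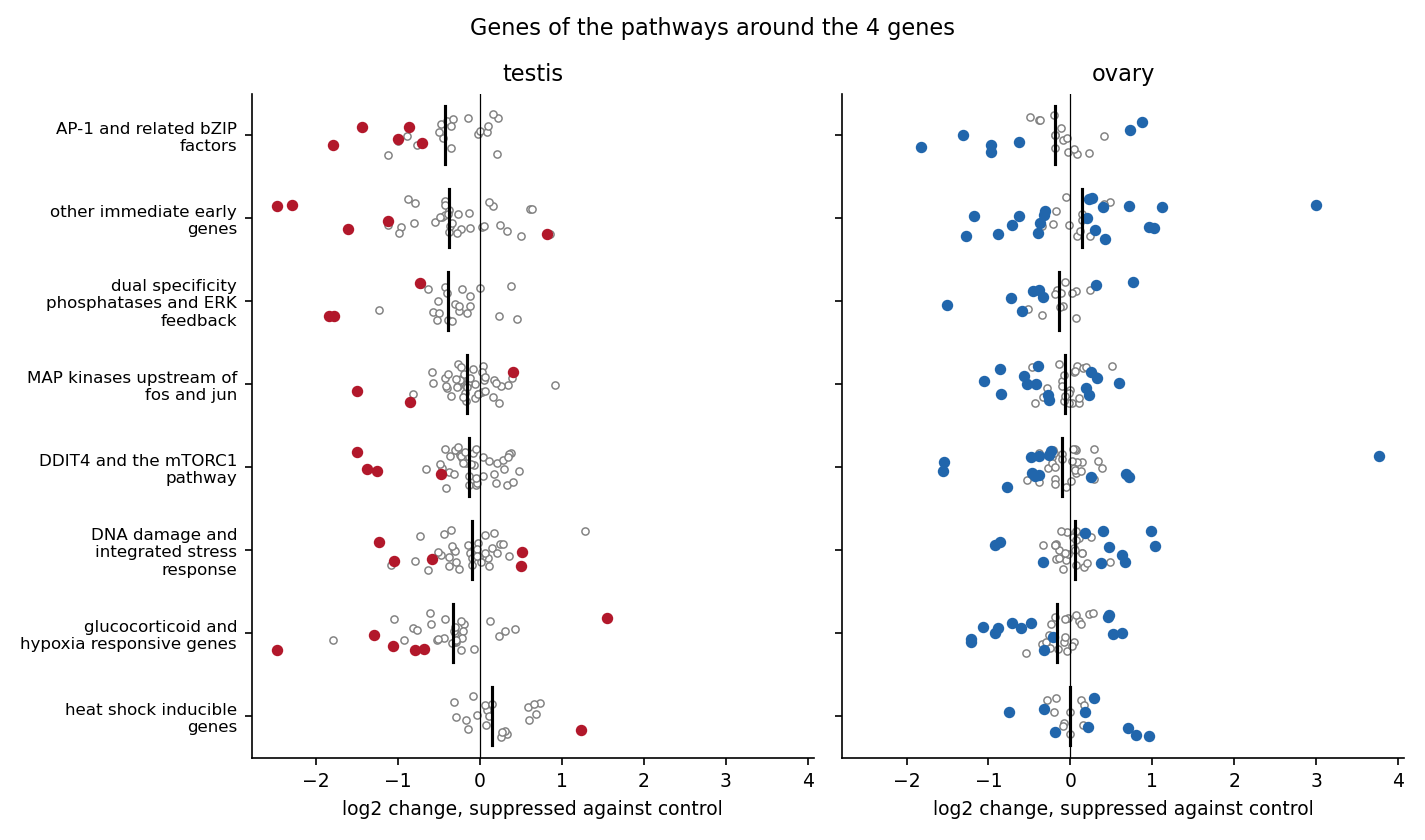
Log2 change, labelled suppressed against control, of every tested gene of 8 lists in testis (left) and ovary (right); filled points have an adjusted p under 0.05, black bars are list medians, and heights within a row are random. Medians run from -0.43 to 0.15 in testis and from -0.18 to 0.14 in ovary.

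Some markers of other cell types also differed between the groups, and their part in the results above was not tested. Over all tested genes 10.9% passed the test in testis and 35.9% in ovary. The counts of markers below are to be read against these shares. Of the testis somatic markers, 1 of 5 was higher and 0 lower in testes labelled suppressed, namely sox9a (10.4 and 2.61 FPKM). Among 4 tested in ovary, 2 were higher, dmrt1 (3.25 and 1.04 FPKM) and amh (11.2 and 7.52 FPKM). cyp11c1 was lower there (7.22 and 14.8 FPKM). In ovaries the summed FPKM of 6 liver markers was 8.99 to 12.6 in libraries labelled suppressed and 154 to 364 in controls, 2 of 2 tested markers fell, and ambp was listed at 0. Most of this sum was apoa1a, at means of 10.8 FPKM in ovaries labelled suppressed and 258 FPKM in control ovaries. The other tested marker, tfa, had means of 0.216 and 4.69 FPKM. It passed the filter only through the controls and so had to differ. Under the filter, fga had means of 0.137 FPKM in ovaries labelled suppressed and 0.0873 FPKM in control ovaries, and fgb 0.0619 and 0.0647 FPKM. Stroma and smooth muscle markers summed to 757 to 762 FPKM in ovaries labelled suppressed and 407 to 466 FPKM in control ovaries, with 4 of 6 higher and 1 lower. Most of that sum was tagln, at means of 633 and 379 FPKM. The lower marker was a copy of PDGFRB (0.815 and 1.67 FPKM), and pdgfra (4.59 and 5.04 FPKM) did not pass the test. Leukocyte markers summed to 157 to 221 FPKM in ovaries labelled suppressed and 139 to 234 FPKM in control ovaries, with 3 of 9 lower. Most of that sum was cd74b (166 and 156 FPKM), which did not pass the test. The lower markers were csf1ra (1.63 and 4.38 FPKM), csf1rb (2.03 and 6.09 FPKM) and a LYZ gene (0.847 and 2.41 FPKM). mpx had a higher mean (2.42 and 1.30 FPKM) and did not pass. Ovarian somatic markers summed to 61.2 to 85.9 FPKM in ovaries labelled suppressed and 76.6 to 122 FPKM in control ovaries, with 2 of 3 lower. Of these, rspo1 had means of 0.437 and 1.20 FPKM and reached the filter mostly through the controls. In testes, stroma markers summed to 434 to 2236 FPKM in libraries labelled suppressed and 556 to 915 FPKM in controls, with 1 of 6 higher. Skeletal muscle markers summed to 22.4 to 147 FPKM in testes labelled suppressed and 11.7 to 14.7 FPKM in control testes, with 2 of 4 higher. The rise of the sum was mostly that of acta1a, at means of 76.9 and 6.38 FPKM. tnnt3a (0.272 and 0.619 FPKM) and ckma (0.661 and 0.954 FPKM) had lower means in testes labelled suppressed, so the list did not move as 1. In ovaries skeletal muscle markers summed to 16.2 to 31.9 FPKM in libraries labelled suppressed and 2.58 to 3.04 FPKM in controls, with 1 of 2 higher. That 1 was acta1a, at means of 21.3 and 1.12 FPKM, while ckma had 0.941 and 1.51 FPKM. Germ line markers summed to 3205 to 4305 FPKM in testes labelled suppressed and 2457 to 2808 FPKM in control testes, with 1 of 5 higher and 1 lower. In ovaries they summed to 608 to 626 FPKM in libraries labelled suppressed and 353 to 359 FPKM in controls, with 3 of 5 higher and 1 lower, and 3 of 4 oocyte markers were higher as well. The germ line sums of the groups did not overlap in either gonad, but the list did not move as 1. In ovaries most of the rise was ddx4, at means of 369 FPKM in libraries labelled suppressed and 151 FPKM in controls. piwil1 and dnd1 rose too, while sycp3 fell (3.14 and 6.63 FPKM) and dazl had 27.5 and 28.4 FPKM. In testes ddx4 rose (882 and 499 FPKM), dnd1 fell (23.6 and 43.8 FPKM), and sycp3 (1459 and 963 FPKM) did not pass the test. Erythrocyte markers summed to 3.03 to 5.90 FPKM in testes labelled suppressed and 7.87 to 16.7 FPKM in control testes, with 1 of 3 lower. Endothelial markers summed to 28.3 to 61.0 FPKM in testes labelled suppressed and 58.5 to 75.6 FPKM in control testes, with 1 of 7 higher. That was egfl7 (21.2 and 14.2 FPKM), while cldn5b (17.7 and 38.1 FPKM) did not pass the test. Leukocyte markers summed to 232 to 378 FPKM in testes labelled suppressed and 214 to 257 FPKM in control testes, with 1 of 7 higher. Most of this sum was cd74b (268 and 204 FPKM), which did not pass the test. The higher marker was csf1rb (14.2 and 8.59 FPKM), while csf1ra had a lower mean (1.03 and 2.22 FPKM) and did not pass.

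Genes whose pattern was most like each of the 4 were found by Pearson correlation of log2(FPKM + 1), among 13554 genes with a symbol and at least 1 FPKM in 3 or more libraries. Over all 12 libraries, where a correlation also follows the difference between testis and ovary, jun was most like nr2f6b (r = 0.991), a copy of BHLHE40 (0.986) and igfbp1a (0.980). fosab was most like and2 (0.962), SPATA5 (0.960) and eef2k (0.956), ddit4 like tk2 (0.949), polr3b (0.945) and zak (0.942), and dusp2 like fam92a1 (0.896), tasp1 (0.883) and cplx4a (0.876). With tissue means removed, jun was most like nr2f6b (0.981), si:ch211-12m10.1 (0.975) and the jund copy that also fell in testis (0.975). fosab was then most like hey1 (0.982), gorasp2 (0.980) and cry1ba (0.977), ddit4 like si:dkey-1d7.3 (0.971), slc4a2b (0.962) and chrm2b (0.960), and dusp2 like baiap2l1a (0.956), si:dkey-166d12.2 (0.929) and manba (0.927). Among the 4 genes, with tissue means removed, the correlation was 0.66 for fosab with jun and 0.76 for jun with dusp2, and -0.49 for jun with ddit4 and -0.58 for ddit4 with dusp2. These are descriptions of 12 libraries in 4 groups.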

How the data were processed

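Total RNA of testis and ovary was sequenced in 12 Illumina libraries, 3 in each of 4 groups. HISAT and StringTie are named in the submitters' processing notes. For versions, settings, strand, genome build and annotation, no source used here gives them. Per the file headers, the deposited table holds estimated counts per gene and FPKM (fragments scaled for transcript length and depth) for 22283 Ensembl genes, 17380 of them with a symbol. The expected counts, deposited as whole numbers, were used as such, and a count of 0 is listed at 0.0001 FPKM. All 12 columns of each kind were matched to a library by title, and 0 value columns were left out.

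Tests covered genes at 1 FPKM or more in 3 libraries or more of those compared, on the counts, with the quasi-likelihood test of edgeR 4.0.16 (R 4.3.3) and TMM scaling, each tissue on its own libraries and the interaction on all 12. Benjamini-Hochberg adjustment ran over every gene tested, and 0.05 was the threshold. SEs come from the F statistic. The fit was tested on simulated data. DESeq2 1.42.0, limma 3.58.1, other scalings, filters, designs and leaving out each library were run as alternatives. FPKM, scaled for length, are used for levels.

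The 4 genes and 8 lists were chosen with earlier results of these data known. List genes past the test are named, or the 6 with the largest change where more pass, and for likeness the 3 highest correlations. Symbols shared by several genes (2070 genes) are called copies. A gene that the rule names is not reported here by name or value, though list counts include it. Sequences and promoter motifs were not analysed here.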

Additional observations from a re-analysis of the deposited data

Results flagged for a closer look

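The change with the suppression label differed between testis and ovary, by the interaction term of edgeR over all 12 libraries, for fosab and ddit4 and for 26 of the family and list genes named. The values below are the testis change minus the ovary change on the log2 scale, each with an adjusted p under 0.05. They were -2.71 for fosab (SE 0.41, adjusted p = 0.000866), whose change was -1.80 in testis and 0.87 in ovary, and -3.39 for ddit4 (SE 0.53, adjusted p = 0.00109), at 0.40 in testis and 3.76 in ovary.

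The testis change was the lower one for ptgs2b (-3.84), socs3a (-2.74), junba (-2.51, under the filter in testis alone), per2 (-1.95), the copy of DDIT4 (-1.76), klf9 (-1.63), nr4a3 (-1.49), phlda3 (-1.46), socs3b (-1.33), txnipa (-1.31), dusp5 (-1.31), cdkn1a (-1.25), the copy of NR4A1 (-1.18, under the filter in ovary alone, where its group means were 0.297 and 0.0785 FPKM), egln2 (-1.06), map3k8 (-1.06), the copy of AKT2 (-0.89), chac1 (-0.85), the copy of JUN (-0.83), bnip3 (-0.80) and map2k2b (-0.65). It was the higher one for hspa4a (0.40), foxo3a (0.99), mapk12b (1.04), akt2 (1.28), star (1.87) and ptena (1.98). Of all 15382 genes tested for the interaction, 15.5% passed. List genes were named because they passed a label test in testis or ovary. Their number is therefore that of a chosen set and cannot be compared with this share.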

How the results depend on the processing

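jun and ddit4 kept their direction and their side of the threshold in all 5 comparisons under every alternative that gave a value, with jun between -1.58 and -1.28 in testis and ddit4 between 2.22 and 3.95 in ovary. limma on log2(FPKM + 1), which by construction compresses low values, gave 2.22 for ddit4, 0.42 for fosab and -0.74 for dusp2 in ovary, -1.65 for fosab and -2.00 for ddit4 in the interaction and 1.54 for ddit4 between control tissues. The filter of 5 FPKM dropped fosab, dusp2 and, in part, ddit4, and leaving out a library kept the genes of the full fit. In testis 1571 genes passed, and 2890 with DESeq2, 2873 with all 12 libraries in 1 fit and between 418 and 2899 with 1 library left out (2899 without labelled replicate 3, 575, 418 and 523 without control replicates 1, 2 and 3, 722 without labelled replicate 2). In ovary 4510 passed, and 2541 in the fit of all 12. The fosab rise in ovary ran from 0.65 to 1.07 with 1 library left out. The fosab difference between tissues labelled suppressed passed with no filter (-0.87), with DESeq2 (-0.70) and in the fit of all 12 (-0.74), and ran from -1.00 to -0.54 with 1 library left out. The dusp2 difference between control tissues ran from -1.13 to -0.47 with 1 library left out and was -0.31 with limma, and between tissues labelled suppressed it was 0.13 as a ratio of means and -0.16 with no filter (edgeR adjusted p = 0.819). With a pseudocount of 0.1, 5 of 12 genes named for likeness with tissue means removed stayed among the 3 highest. The causes were not tested.

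Scaling by total counts moved the median of all genes by -0.12 in testis and -0.07 in ovary, by 0.19 between control tissues and by 0.13 between tissues labelled suppressed. The share of calls that were higher went to 31.9% in testis, against 48.1% under TMM, and to 36.0% in ovary, against 50.3%. The titles share replicate numbers. Deviations of same-numbered libraries from their group means correlated at -0.46 to -0.04 in testis and -0.21 to -0.06 in ovary. Libraries of different numbers correlated at up to 0.46 in testis and 0.28 in ovary. In both gonads, 0 libraries correlated best with the library of their own number. Between the gonads same-numbered libraries correlated at 0.004 to 0.13 for controls and -0.14 to 0.21 for libraries labelled suppressed. There 1 control library and 2 labelled libraries correlated best with their own number. With 3 libraries per group this cannot settle whether the numbers mark pairs or batches. With the replicate number as a block, 276 genes passed in testis and fosab gave -1.85 there (adjusted p = 0.0613). Other testis calls that held without each library were lost too, for klf9, socs3b, per2, egln2 and the falling jund copy (edgeR adjusted p up to 0.0717). Those of jun, cebpb, socs3a, dusp5, map3k8 and txnipa were kept.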
